A study of Mus musculus with 6 samples.

Results

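Solute carriers are membrane proteins that move small molecules across the plasma membrane and across the membranes of organelles. The genes described here are the mouse solute carrier (Slc) genes whose transcripts were detected in RAW264.7 cells, a mouse line with macrophage features that arose from an Abelson leukaemia virus tumour. They were chosen by name and by measured level: a symbol made of Slc, a family number and a member letter and number, and at least 1 TPM (a level corrected for transcript length and for library size) in at least 3 of 6 libraries. Of 362 such symbols in the deposited table, 181 did not reach that level, 31 of them listed at 0 in all 6 libraries, and 181 did. The selection also left out 12 named carriers of amino acids, glucose and monocarboxylates, which leaves 169 genes of 44 families, among 11257 genes of all kinds that reached the same level and 25124 listed. Polyadenylated RNA was sequenced from 3 libraries labelled E4BP4 knockout and 3 labelled control, all from untreated RAW264.7 cells. E4BP4 is a transcription factor of the bZIP class, encoded by Nfil3. The sources used here do not give the method of the knockout, whether the cells were 1 clone or pooled, or whether each replicate was a culture of its own. The p-values therefore measure only how far these libraries spread, and that spread may be technical.

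Carriers of the SLC group use gradients of sodium, protons or the solute itself, in contrast to the ATP-driven ABC transporters. In macrophages they supply amino acids, sugars and nucleosides, and they serve the phagosome and lysosome, where engulfed cells and microbes are broken down. Macrophages also recycle the iron and haem of engulfed red blood cells. The haem carrier HRG1 (Slc48a1), the divalent metal carrier NRAMP1 (Slc11a1) and the iron exporter ferroportin (Slc40a1) act in turn on that route. The mitochondrial carriers of family 25 move nucleotides, phosphate, organic acids and amino acids across the inner mitochondrial membrane, and family 35 carries activated sugars into the Golgi and endoplasmic reticulum.

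The targeted gene ran against its label. Nfil3 had 105, 104 and 99.8 TPM in the libraries labelled knockout, against 29.5, 29.9 and 31.02 TPM in the control libraries, with no overlap (log2 fold change 1.74, SE 0.0393, limma adjusted p = 4.96e-09). A transcript level cannot show whether the protein was made, and every direction below rests on the labels. Depth per the file headers, in M (mega) tags, was 21.7, 23.3 and 22.7 under the knockout label and 21.4, 21.7 and 18.4 in the controls. All 7 macrophage markers examined reached 1 TPM. None of 19 markers of T cells, B cells, fibroblasts, epithelium, endothelium, mast cells or neutrophils did, and the highest summed level of any of those lists in a library was 1.02 TPM. Whole cultures were measured, so less RNA per cell and fewer cells expressing a gene cannot be told apart.

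Across the 169 carriers, changes were frequent, small and split between both directions. In the knockout-labelled libraries 38 carriers were higher and 50 were lower, and 81 did not pass (limma on log2(TPM + 1), adjusted p under 0.05 over all genes tested). That is 52.1% called, against 50.1% of all 11257 genes, with 22.5% higher against 26.7% of all genes and 29.6% lower against 23.4%. The share called was therefore near that of the whole table. The median log2 fold change was −0.0089 for the carriers and 0.017 for all genes, and the median absolute log2 fold change was 0.167 for the carriers and 0.170 for all genes. Of the carriers, 153 differed by less than 0.5 on the log2 scale, including 72 of the 88 called. The same held for 9975 of all 11257 genes, including 4414 of the 5639 called, so small changes were common to the whole table. A call with a change of 1 or more on the log2 scale was made for 3 carriers (1.78%), against 2.25% of all genes. These were Slc6a13 and Slc25a33, which were higher, and Slc43a3, which was lower. Every knockout-labelled value lay above every control value in 46 carriers and below in 61, against 3524 and 3066 of all 11257 genes. The 12 highest and 12 lowest carriers described below were picked among genes without overlap, so their separation was fixed by the choice. Of the calls, 23 of 38 higher and 39 of 50 lower were kept in every other setting that fitted the gene. A minimum of 5 TPM fitted 139 of the 169 carriers and the deposited log2 values fitted 168. Of the 19 called carriers below 0.2 on the log2 scale, 3 kept their call throughout.

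**Figure D1:**
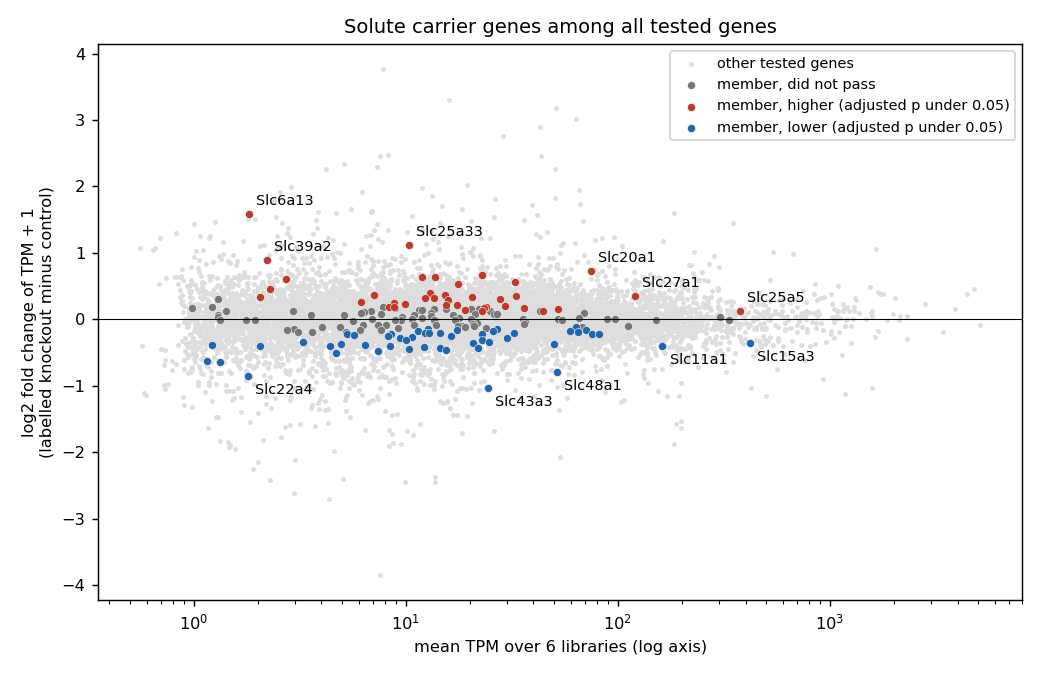
Log2 fold change of TPM + 1 (libraries labelled knockout minus control) against the mean TPM over 6 libraries on a log axis, 1 point per gene, for all tested genes (light grey) and for the solute carriers (red, higher; blue, lower; dark grey, did not pass). The carriers lie in the band of the other genes, with Slc6a13 and Slc25a33 above 1 and Slc43a3 below −1.

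The summed level of the group was of similar size in all 6 libraries. Summed over the 169 carriers, the level was 4976, 4899 and 5019 TPM in the knockout-labelled libraries, against 5045, 5139 and 5100.0 TPM in the control libraries. The knockout-labelled sums were all below the control sums, and they came to 0.895%, 0.881% and 0.904% of the summed TPM of each library, against 0.908%, 0.932% and 0.921% in the controls. A few carriers made up much of this total. The 10 most abundant held 43.03% of it, 8 carriers averaged over 100 TPM, 31 averaged under 5 TPM, and the median carrier averaged 13.5 TPM. In order, the 8 most abundant were the endolysosomal peptide carrier Slc15a3, the adenine nucleotide carriers Slc25a5 and Slc25a4, the mitochondrial phosphate carrier Slc25a3, Slc11a1, Slc25a39, the fatty acid transport protein Slc27a1 and the taurine transporter Slc6a6. In at least 1 other setting the call of Slc25a5 was lost.

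Selection by level touched 3 carriers directly. Slc6a13 reached 1 TPM only under the knockout label, and Slc16a5 and Slc4a3 only in the controls, so their differences are in part what admitted them. Without these 3 carriers, 37 of 166 were higher and 48 were lower, and 2 (1.20%) were called with a change of 1 or more on the log2 scale. Just inside the threshold were Slc18a2, Slc29a2, Slc3a1 and Slc52a3, with the third-highest library at 1.03, 1.24, 1.27 and 1.30 TPM. Just outside it were Slc27a3, Slc22a15, Slc18a1 and Slc22a21, with 0.867, 0.820, 0.809 and 0.753 TPM. Of the 4 just inside, Slc29a2 alone passed (log2 fold change −0.39, limma adjusted p = 0.0393), and its call was lost without knockout-labelled replicate 1 or 2 (limma adjusted p = 0.0809 and 0.135), without control replicate 2 or 3 (0.0896 and 0.122), with no filter on low values (0.0769) and with the chromosome shift removed (0.054). Genes that overlap others add uncertainty, since unstranded reads there cannot be told apart. In GENCODE M21, 16 carriers share over 10% of their exonic bases with another gene, among them Slc39a7 (80.7%), Slc15a3 (28.1%), Slc9a4 (21.3%), Slc25a33 (14.9%), Slc20a1 (13.1%) and Slc10a3 (12.8%).

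The carriers were sorted by family number into 8 groups, each named after the substrates or site of its families. Slc43a3 and Slc5a6 were instead placed by substrate, moved from families 43 and 5 to vitamins and nucleosides. The counts stand beside 26.7% higher and 23.4% lower over all genes tested. The 13 carriers of vitamins and nucleosides held 0 higher and 7 lower, and the 18 carriers of organic anions, cations and lipids 2 and 8. The 20 members of family 35, grouped under nucleotide sugars, held 2 and 7. Amino acid and peptide carriers (18) held 5 higher and 5 lower, sugar and polyol carriers (12) 3 and 5, and carriers of inorganic ions and pH (28) 8 and 7. Trace metal and haem carriers (25) held 8 higher and 3 lower, and the mitochondrial carrier family (35) 10 and 8. The group medians of log2 fold change ran from −0.23 for vitamins and nucleosides to 0.031 for amino acids and peptides. The share called in either direction was 44% to 66.7% by group, against 50.1% of all genes. These counts describe the groups, which were drawn up with earlier results of these data known.

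**Figure D2:**
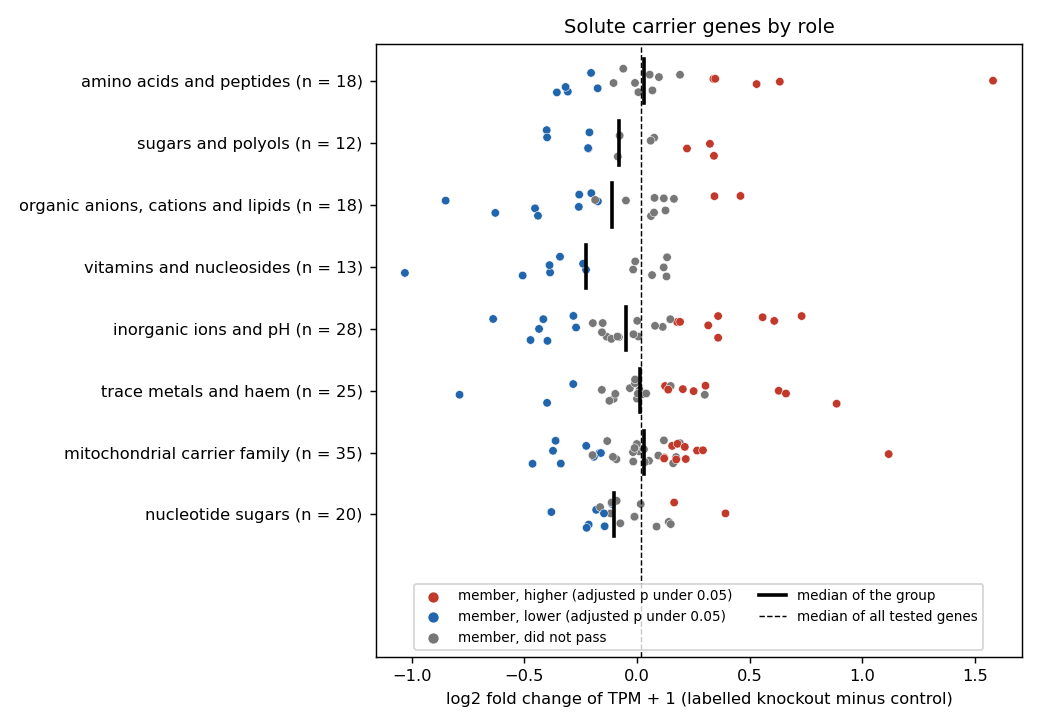
Log2 fold change of TPM + 1 (libraries labelled knockout minus control) of each solute carrier by substrate group, 1 point per gene (vertical scatter within a group is for legibility), with group medians as black bars and the median of all tested genes as a dashed line. No vitamin or nucleoside carrier is red, while the metal, mitochondrial and ion groups hold points on both sides.

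Among amino acid and peptide carriers, Slc6a12 and Slc6a8 of family 6 were higher and both endolysosomal peptide carriers of family 15 were lower. Slc6a13, a GABA and taurine transporter, had 3.18, 3.36 and 3.12 TPM in the knockout-labelled libraries, against 0.474, 0.339 and 0.422 TPM in the controls. Its mean was 7.82-fold higher (log2 fold change 1.58, SE 0.0946, limma adjusted p = 1.38e-06). It passed the filter on low values through the knockout-labelled libraries alone, so its fold, its p and the separation of the groups are in part what admitted it. The control mean rested on 13 reads per library. Slc6a12, the betaine and GABA transporter whose gene lies next to it, had 21.5, 20.1 and 21.3 TPM under the knockout label, against 14.9, 14.04 and 13.7 TPM in the controls, with no overlap (log2 fold change 0.53, SE 0.0511, limma adjusted p = 2.67e-05). The creatine transporter Slc6a8 had 36.5, 37.8 and 37.0 TPM under the knockout label and 27.1, 31.1 and 28.8 TPM in the controls (log2 fold change 0.35, limma adjusted p = 0.000482). The fourth member in the selection, the taurine transporter Slc6a6, did not pass (log2 fold change −0.10, limma adjusted p = 0.0741).

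Lysosomal carriers of this group went both ways. Slc38a7, which exports glutamine and asparagine from the lysosome, had 17.3, 16.6 and 16.7 TPM in the knockout-labelled libraries, against 10.6, 10.4 and 10.6 TPM in the controls, and the groups were well apart (log2 fold change 0.63, SE 0.0468, limma adjusted p = 5.24e-06). Slc15a3, the most abundant carrier of all, had 362, 362 and 381 TPM under the knockout label, against 477, 471 and 466 TPM in the controls, also without overlap (log2 fold change −0.36, SE 0.0352, limma adjusted p = 3.23e-05). Its relative Slc15a4, which carries histidine and peptides out of endolysosomes, was also lower (log2 fold change −0.17, limma adjusted p = 0.00947), and so was the lysosomal proton-coupled carrier Slc36a1 (log2 fold change −0.20, limma adjusted p = 0.00662). The gene that shares exonic bases with Slc15a3 is Tmem132a, and the kit used for these libraries does not mark strand. At the plasma membrane, Slc7a7, the basic amino acid exchanger, and Slc43a2, a carrier of large neutral amino acids, were also lower (log2 fold changes −0.32 and −0.31). Slc7a8, Slc7a6, Slc7a2 and Slc38a10 did not pass.

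The 12 carriers left out of the selection are given only to mark its boundary. Of these, 10 were higher and 1 was lower, with a median log2 fold change of 0.64, beside 26.7% higher and 23.4% lower over all genes tested. Among the 10 was Slc7a11, which reached 1 TPM only under the knockout label, so its difference is in part what admitted it to the test. Slc1a4, a neutral amino acid exchanger, had 20.2, 19.9 and 18.96 TPM in the knockout-labelled libraries, against 4.09, 4.03 and 4.65 TPM in the controls. Slc7a5, the light chain of the large neutral amino acid transporter, had 110.4, 107 and 109.8 TPM under the knockout label, against 44.2, 48.6 and 48.7 TPM in the controls. Their log2 fold changes were 1.98 and 1.20 (limma adjusted p = 4.29e-08 and 6.86e-08).

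Every vitamin, nucleobase and nucleoside carrier that passed was lower under the knockout label, 7 of 13. Beside this stand 23.4% lower and 26.7% higher over all genes tested. Slc43a3 and Slc5a6, which fell the most, stand in this group by substrate and not by family number. The groups were drawn up with earlier results of these data known. Slc43a3, a nucleobase transporter, had 14.9, 16.2 and 16.1 TPM in the knockout-labelled libraries, against 33.7, 34.1 and 31.6 TPM in the controls. All 3 knockout-labelled values lay below the lowest control value, and the control mean was 2.11-fold the knockout-labelled mean (log2 fold change −1.03, SE 0.0509, limma adjusted p = 3.95e-07). Slc5a6, the sodium-dependent carrier of biotin and pantothenate, had 3.62, 3.71 and 3.78 TPM under the knockout label, against 5.59, 5.93 and 5.53 TPM in the controls (log2 fold change −0.51, SE 0.0652, limma adjusted p = 0.000169). Slc46a1, the proton-coupled folate transporter, had 5.01, 5.38 and 5.99 TPM under the knockout label and 7.82, 7.18 and 7.33 TPM in the controls (log2 fold change −0.39, limma adjusted p = 0.00171). The thiamine carrier Slc19a2, the riboflavin carrier Slc52a2 and the lysosomal nucleoside carrier Slc29a3 fell by smaller amounts, with log2 fold changes of −0.23, −0.24 and −0.34, and Slc29a2 was the seventh. The most abundant of the group, the adenosine carrier Slc29a1, had 58.0, 51.4 and 53.9 TPM under the knockout label, against 54.3, 55.4 and 54.3 TPM in the controls, and the groups overlapped (limma adjusted p = 0.902). The reduced folate carrier Slc19a1 and the ascorbate carrier Slc23a2 also did not pass (0.13 and 0.12 on the log2 scale). The calls of Slc19a2 and Slc29a2 were not kept in every other setting.

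Carriers of organic anions, cations and lipids were lower in 8 cases and higher in 2. Over all genes tested 23.4% were lower and 26.7% higher. Slc44a2, a choline transporter-like protein, had 18.3, 18.3 and 19.01 TPM in the knockout-labelled libraries, against 25.1, 26.8 and 24.6 TPM in the controls, with no overlap (log2 fold change −0.44, SE 0.0478, limma adjusted p = 5.84e-05). Its relative Slc44a1, a choline transporter, was lower too (log2 fold change −0.26, limma adjusted p = 0.0271). Slc10a3, a member of the bile acid carrier family without an established substrate, had 9.06, 8.67 and 8.04 TPM under the knockout label, against 12, 12.3 and 12.01 TPM in the controls (log2 fold change −0.45, SE 0.0570, limma adjusted p = 0.000148). Slc22a4, which carries the antioxidant ergothioneine, was low throughout, with 1.08, 1.01 and 0.905 TPM in the knockout-labelled libraries, against 2.17, 3.07 and 2.61 TPM in the controls (log2 fold change −0.85, limma adjusted p = 0.0002002), from about 35 reads per knockout-labelled library and 83.3 per control library. Other settings did not all keep the call of Slc44a1.

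Fatty acid carriers of family 27 were called in both directions. Slc27a1 had 136, 133 and 135 TPM in the knockout-labelled libraries, against 103, 106 and 109 TPM in the controls, so the groups were separate at a high level (log2 fold change 0.34, SE 0.0356, limma adjusted p = 4.27e-05). Slc27a4, another fatty acid transport protein, was lower (log2 fold change −0.26, limma adjusted p = 0.00138). Of the 5 monocarboxylate carriers of family 16 in the selection, 3 were lower and 0 were higher, beside 23.4% lower and 26.7% higher over all genes tested. Among the 3 was Slc16a5, which reached 1 TPM only in the controls, so its difference is in part what admitted it. Slc16a5 had 0.612, 0.715 and 0.739 TPM under the knockout label, against 1.45, 1.70 and 1.69 TPM in the controls, and Slc16a13 and Slc16a6 had log2 fold changes of −0.20 and −0.17. The abundant aromatic amino acid carrier of that family, Slc16a10, did not pass (−0.049). In at least 1 other setting the call of Slc16a6 was lost.

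Sugar carriers changed by small amounts. The hexose carrier Slc2a6 had 68.9, 69.0 and 70.7 TPM in the knockout-labelled libraries, against 81.2, 80.03 and 81.5 TPM in the controls, without overlap (log2 fold change −0.22, SE 0.0342, limma adjusted p = 0.000628). Slc37a2, an endoplasmic reticulum sugar phosphate exchanger abundant in macrophages, had 76.4, 75.1 and 75.5 TPM under the knockout label, against 85.0, 91.3 and 88.1 TPM in the controls (log2 fold change −0.22, SE 0.0381, limma adjusted p = 0.00116). The urate carrier Slc2a9 had 7.21, 7.26 and 6.88 TPM under the knockout label and 9.41, 10.8 and 8.98 TPM in the controls (log2 fold change −0.40, SE 0.0720, limma adjusted p = 0.00134). Slc37a3 and the inositol carrier Slc5a3 were lower as well, with log2 fold changes of −0.21 and −0.40. The 3 that were higher were Slc45a4, Slc37a1 and Slc5a2, with log2 fold changes of 0.32, 0.22 and 0.34. The glucose transporter Slc2a3 and the glucose 6-phosphate carrier Slc37a4 did not pass. The call of Slc5a2 was not kept in every other setting.

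Among carriers of inorganic ions, both sodium-dependent phosphate carriers were higher. Slc20a1 had 93.6, 92.3 and 94.0 TPM in the knockout-labelled libraries, against 51.9, 57.8 and 58.1 TPM in the controls. The lowest knockout-labelled value was far above the highest control value, and the ratio of the means was 1.67 (log2 fold change 0.73, SE 0.0477, limma adjusted p = 2.38e-06). Slc20a2, the paralog on chromosome 8, had 15.4, 14.1 and 15.9 TPM under the knockout label, against 11.5, 12.6 and 11.8 TPM in the controls (log2 fold change 0.32, limma adjusted p = 0.00181). Xpr1, a phosphate exporter now placed in the SLC group under another symbol and so outside the selection, was also higher (log2 fold change 0.38, limma adjusted p = 0.00101).

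Cation-chloride cotransporters of family 12 were split. The potassium chloride cotransporter Slc12a4 and the sodium potassium chloride cotransporter Slc12a2 were slightly higher, with log2 fold changes of 0.19 and 0.18. Slc12a9, a relative of these cotransporters, had 10.6, 10.1 and 10.1 TPM under the knockout label, against 13.04, 14.6 and 14.5 TPM in the controls (log2 fold change −0.42, SE 0.0580, limma adjusted p = 0.000286). Slc12a7 and Slc12a5 did not pass. Other settings did not all keep the calls of Slc12a4 and Slc12a2.

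Other ion carriers were called in both directions. The anion exchanger Slc4a3, which reached 1 TPM only in the controls, had 0.838, 0.797 and 0.824 TPM in the knockout-labelled libraries, against 1.88, 1.64 and 1.99 TPM in the controls (log2 fold change −0.64, limma adjusted p = 0.000551). Slc14a1, a urea transporter placed in this group, had 8.34, 7.49 and 8.32 TPM in the knockout-labelled libraries, against 6.40, 6.24 and 5.52 TPM in the controls (log2 fold change 0.36, SE 0.0718, limma adjusted p = 0.00240). The sodium proton exchanger Slc9a4 had 16.5, 17.98 and 17.3 TPM under the knockout label, against 13.7, 13.4 and 12.6 TPM in the controls (log2 fold change 0.36, SE 0.0539, limma adjusted p = 0.000441). Of 6 sodium proton exchangers of family 9, this was the only one higher and Slc9a8, of the Golgi, was the only one lower (log2 fold change −0.27, limma adjusted p = 0.00829). For comparison, 26.7% of all genes tested were higher and 23.4% lower. Slc26a11, a sulfate and chloride carrier, averaged 3.50 ± 0.363 TPM under the knockout label and 1.95 ± 0.1 TPM in the controls (SD, n = 3 each).

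Carriers of magnesium, mitochondrial calcium and anions were among the lower ones. Slc41a2, a magnesium carrier, had 6.18, 5.82 and 6.14 TPM in the knockout-labelled libraries, against 9.04, 9.15 and 8.16 TPM in the controls (log2 fold change −0.47, SE 0.0634, limma adjusted p = 0.000223). Slc8b1, the exchanger that releases calcium from mitochondria, had 12.9, 11.9 and 11.9 TPM under the knockout label, against 16.84, 17.4 and 16.4 TPM in the controls (log2 fold change −0.43, SE 0.0520, limma adjusted p = 0.000107). The anion exchanger Slc26a6 had 3.62, 3.54 and 3.86 TPM under the knockout label and 5.33, 4.76 and 5.38 TPM in the controls (log2 fold change −0.40, SE 0.0731, limma adjusted p = 0.00154). In each of these 3 genes every knockout-labelled value was below every control value, as the rule that chose them required. The other magnesium carriers, Slc41a1 and Slc41a3, did not pass. Slc26a10 was lower here (log2 fold change −0.28, limma adjusted p = 0.00181), whereas the authors' deposited table gives it a log2 fold change of 0.041. That was the only called carrier of 88 whose sign differed there, and it shares 17.8% of its exonic bases with B4galnt1. In at least 1 other setting the call of Slc26a10 was lost.

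Iron and haem carriers changed in both directions. The iron exporter Slc40a1 had 27.5, 27.8 and 29.2 TPM in the knockout-labelled libraries, against 16.1, 18.5 and 17.8 TPM in the controls. No control library reached the lowest knockout-labelled value (log2 fold change 0.66, SE 0.0569, limma adjusted p = 1.31e-05). Slc48a1, which moves haem out of the phagolysosome, had 37.0, 36.3 and 39.6 TPM under the knockout label, against 65.7, 67.8 and 63.6 TPM in the controls, and its control mean was 1.74-fold the knockout-labelled mean (log2 fold change −0.79, SE 0.0456, limma adjusted p = 1.1e-06). Slc11a1, which pumps divalent metals out of the phagosome, had 139.7, 136 and 143 TPM under the knockout label and 177, 189.9 and 187 TPM in the controls, without overlap (log2 fold change −0.40, SE 0.0397, limma adjusted p = 3.33e-05). RAW264.7 derives from a BALB/c mouse, a strain that carries the infection-susceptible allele of Slc11a1. Its relative Slc11a2, the iron carrier of endosomes, was higher, with 31.1, 29.7 and 32.05 TPM under the knockout label, against 24.3, 25.7 and 24.6 TPM in the controls (log2 fold change 0.30, limma adjusted p = 0.000439).

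Genes of iron and haem handling without an Slc symbol gave further values. Flvcr1, a choline and haem carrier, had 41.8, 41.3 and 42.96 TPM in the knockout-labelled libraries, against 27.8, 30.7 and 29.9 TPM in the controls (log2 fold change 0.50, limma adjusted p = 2.12e-05). The ferritin genes Fth1 and Ftl1 averaged 5510.1 ± 22.9 TPM and 4986 ± 143 TPM under the knockout label, against 4031 ± 98.1 TPM and 3848 ± 126 TPM in the controls (SD, n = 3 each; limma adjusted p = 1.05e-05 and 7.07e-05). Ftl1 (log2 fold change 0.37) lies on chromosome 7, where all 878 tested genes had a median of 0.24. Haem oxygenase 1 (Hmox1), which breaks haem open, was lower (log2 fold change −0.26, limma adjusted p = 0.00190), and the iron regulatory protein gene Aco1 was higher (log2 fold change 0.23, limma adjusted p = 0.00519). The transferrin receptor gene Tfrc had 92.7, 89.3 and 99.7 TPM under the knockout label, against 90.5, 95.0 and 90.6 TPM in the controls, and the groups overlapped (limma adjusted p = 0.644). Ireb2 did not pass (−0.038).

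**Figure D3:**
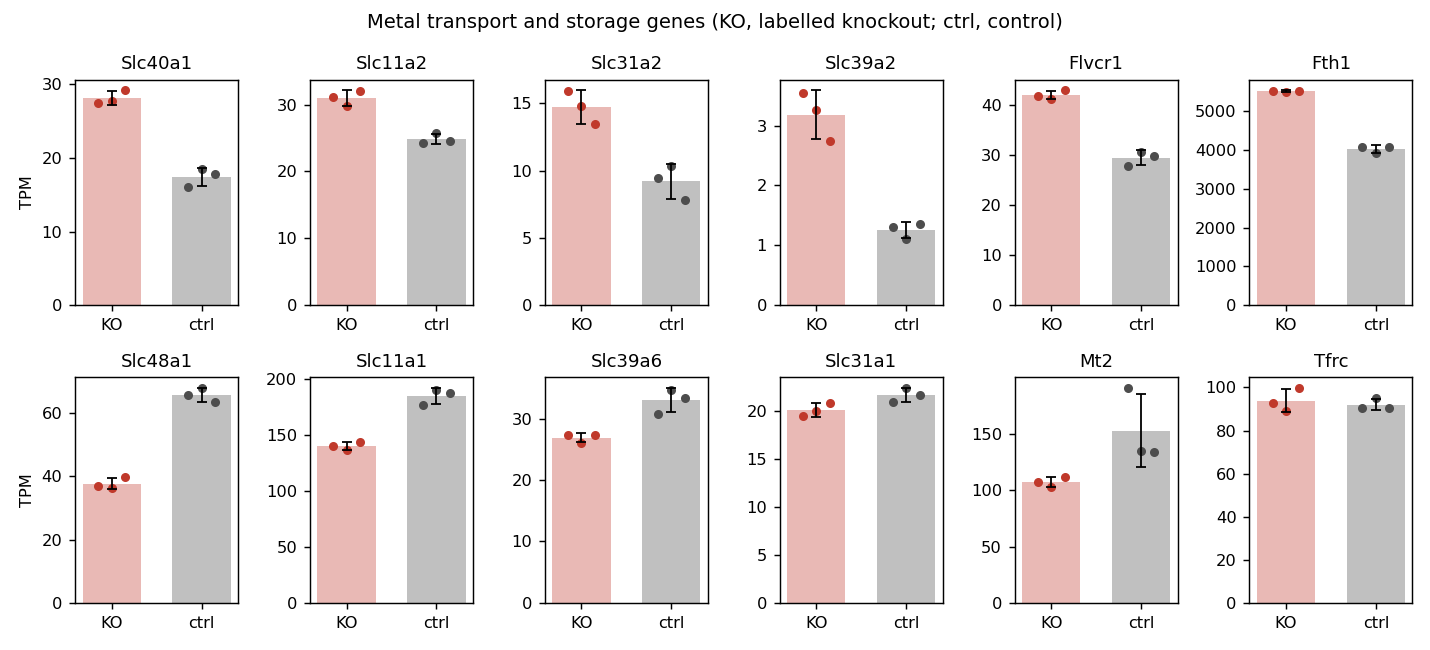
TPM of 8 metal carriers and of Flvcr1, Fth1, Mt2 and Tfrc in the 3 libraries labelled knockout (KO, left) and the 3 control libraries (ctrl, right) as points, with bars at the mean and error bars of 1 SD, each panel on its own linear axis from 0. Slc40a1, Slc11a2, Slc31a2, Slc39a2, Flvcr1 and Fth1 stand higher in KO, Slc48a1, Slc11a1, Slc39a6 and Mt2 stand lower, and Tfrc overlaps between groups.

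Of the copper and zinc carriers, most did not pass, where 50.1% of all genes tested were called. Slc31a2, a copper carrier of endosomes and lysosomes, had 15.9, 14.8 and 13.4 TPM in the knockout-labelled libraries, against 9.42, 10.3 and 7.82 TPM in the controls (log2 fold change 0.63, SE 0.0940, limma adjusted p = 0.000437). Slc31a1, the copper importer of the plasma membrane, whose gene lies 62.3 kb away, did not pass (log2 fold change −0.10, limma adjusted p = 0.0962). Of 12 zinc importers of family 39, 3 were higher and 1 was lower, beside 26.7% higher and 23.4% lower over all genes tested. Slc39a2 was the largest of these, with 3.54, 3.27 and 2.74 TPM under the knockout label, against 1.31, 1.11 and 1.36 TPM in the controls (log2 fold change 0.89, SE 0.102, limma adjusted p = 8.49e-05), at about 43 reads per control library. Slc39a6 was lower (log2 fold change −0.28, limma adjusted p = 0.00138), and Slc39a7 and Slc39a1, the most abundant of the family, did not pass. Of 6 zinc exporters of family 30, Slc30a9 and Slc30a5 were higher, with log2 fold changes of 0.20 and 0.12. Of the metal-binding metallothioneins, Mt2 had 107, 103 and 111 TPM under the knockout label and 190.3, 134 and 133 TPM in the controls, the first control library standing above the other controls (log2 fold change −0.49, limma adjusted p = 0.00616), and Mt1 did not pass (log2 fold change −0.19, limma adjusted p = 0.0912). The call of Slc30a5 was not kept in every other setting.

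In the mitochondrial carrier family 10 genes were higher, and 1 of them changed by over 1 on the log2 scale. The share higher over all genes tested was 26.7%. Slc25a33, the carrier of pyrimidine nucleotides, had 14.1, 14.03 and 15.4 TPM in the knockout-labelled libraries, against 5.58, 6.57 and 6.30 TPM in the controls. The knockout-labelled mean was 2.36-fold the control mean, and the groups were well apart (log2 fold change 1.12, SE 0.0687, limma adjusted p = 1.62e-06). In mm10 the gene spans chromosome 4 from 149744036 to 149774267 (minus strand), where it overlaps Gm13068. The other 9 that were higher had log2 fold changes between 0.12 and 0.29, among them both mitoferrins, Slc25a37 (0.21) and Slc25a28 (0.12), which import iron, and the carnitine carrier Slc25a20 (0.18). Slc25a17, also higher, serves peroxisomes and not mitochondria. Other settings did not all keep the calls of Slc25a37, Slc25a20, Slc25a17 and Slc25a28.

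The abundant carriers that serve oxidative phosphorylation changed little or did not pass. Slc25a5, which exchanges ADP for ATP, had 384, 391 and 399 TPM in the knockout-labelled libraries, against 368, 348 and 364 TPM in the controls (log2 fold change 0.12, SE 0.0357, limma adjusted p = 0.0189). The groups did not overlap, but the ratio of means was 1.09 and the call was lost with upper-quartile scaling (limma adjusted p = 0.0724), without knockout-labelled replicate 2 or 3 (0.0536 and 0.0622) and without control replicate 2 (0.0568). Its paralog Slc25a4 and the phosphate carrier Slc25a3 did not pass, with log2 fold changes of −0.018 and 0.031. Slc25a39, which carries glutathione, and Slc25a11, which carries oxoglutarate, did not pass either. Together Slc25a3, Slc25a4 and Slc25a5 averaged 1030.0 ± 2.85 TPM under the knockout label and 996 ± 26.96 TPM in the controls (SD, n = 3 each).

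Carriers of amino and organic acids were among the mitochondrial genes that were lower. Slc25a38, which imports glycine for haem synthesis, had 12.8, 11.8 and 13.9 TPM in the knockout-labelled libraries, against 17.4, 18.4 and 18.3 TPM in the controls, with no overlap (log2 fold change −0.46, SE 0.0626, limma adjusted p = 0.000234). Slc25a13, the aspartate glutamate carrier citrin, had 43.9, 43.98 and 42.95 TPM under the knockout label, against 52.7, 56.3 and 61.6 TPM in the controls (log2 fold change −0.37, limma adjusted p = 0.000386). The dicarboxylate carrier Slc25a10 had 22.8, 20.4 and 21.9 TPM under the knockout label and 27.8, 27.8 and 27.4 TPM in the controls (log2 fold change −0.34, limma adjusted p = 0.000349). The citrate carrier Slc25a1 and the ATP-magnesium phosphate carriers Slc25a24 and Slc25a23 were lower by small amounts, with log2 fold changes of −0.17, −0.19 and −0.16. Slc25a25, another carrier of that kind, was higher (0.22), and Slc25a12, the paralog of Slc25a13, did not pass (log2 fold change −0.13, limma adjusted p = 0.0827). In at least 1 other setting the calls of Slc25a25, Slc25a23 and Slc25a1 were lost.

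**Figure D4:**
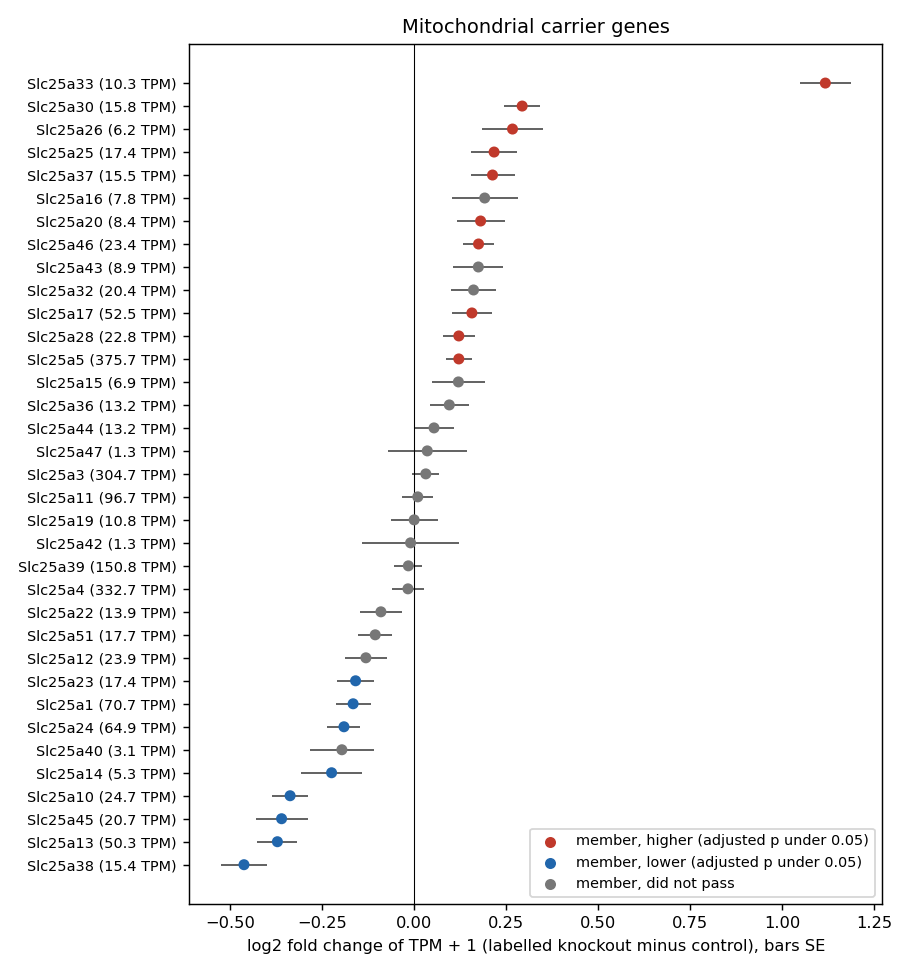
Log2 fold change of TPM + 1 (libraries labelled knockout minus control, points) with its standard error (horizontal bars) for the 35 genes of the mitochondrial carrier family, in order of fold change, with the mean TPM over 6 libraries beside each name. Slc25a33 lies at 1.12 and every other gene lies between −0.46 and 0.29.

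All 20 carriers of family 35, grouped here under nucleotide sugars, differed by less than 0.5 on the log2 scale. So did 9975 of the 11257 genes tested, and over all of these 26.7% were higher and 23.4% lower. Slc35c1, the Golgi carrier of GDP-fucose, had 15.1, 13.96 and 15.6 TPM in the knockout-labelled libraries, against 10.2, 12.2 and 10.96 TPM in the controls (log2 fold change 0.39, SE 0.0705, limma adjusted p = 0.00133). Slc35c2, its relative and the most abundant gene of the group, had 66.7, 61.9 and 68.4 TPM under the knockout label, against 68.2, 62.4 and 64.1 TPM in the controls and did not pass (limma adjusted p = 0.799). The carrier of UDP-N-acetylglucosamine, Slc35a3, was slightly higher (log2 fold change 0.17, limma adjusted p = 0.0343), and the CMP-sialic acid carrier Slc35a1 did not pass (log2 fold change 0.14, limma adjusted p = 0.0543). Among the 7 that were lower, log2 fold changes lay between −0.38 for Slc35d2 and −0.11 for Slc35b2, the carrier of the sulfate donor PAPS. Slc35b1, which brings ATP into the endoplasmic reticulum, had 57.5, 57.6 and 52.3 TPM under the knockout label and 63.6, 62.6 and 63.8 TPM in the controls (log2 fold change −0.18, limma adjusted p = 0.00799). The calls of Slc35a3 and Slc35b2 were not kept in every other setting.

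**Figure D5:**
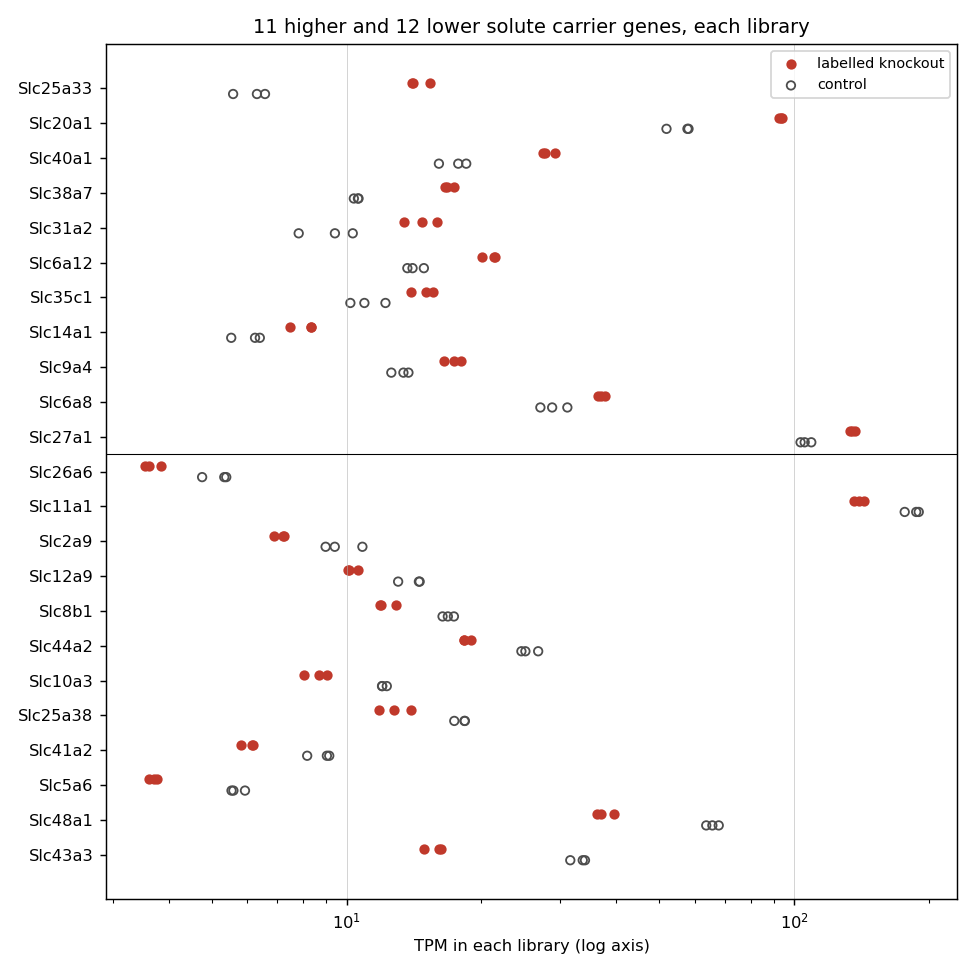
TPM in each library on a log axis for 11 of the 12 carriers with the highest log2 fold changes (upper block) and the 12 with the lowest (lower block), among called carriers without overlap whose mean reached 5 TPM in either group; filled red points are the 3 libraries labelled knockout and open points the 3 controls. The choice of these genes fixes the separation of the groups, and the levels run from 3.54 TPM for Slc26a6 to 189.9 TPM for Slc11a1.

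Some carrier genes lie close together. Within 100 kb of each other in mm10 lay 7 pairs of the 169 genes. Only Slc6a13 and Slc6a12, on the plus strand of chromosome 6 with 5.36 kb between them, were both called, and both were higher. Slc6a13 passed the filter on low values through the knockout-labelled libraries alone, so its difference is in part what admitted it. The share called was 52.1% of all 169 carriers and 50.1% of all genes tested. In 6 pairs only 1 gene was called: Slc31a2 of Slc31a2 and Slc31a1, Slc22a4 of Slc22a5 and Slc22a4, Slc52a2 of Slc52a2 and Slc39a4, Slc35b2 of Slc35b2 and Slc29a1, Slc20a2 of Slc25a15 and Slc20a2, and Slc25a5 of Slc25a43 and Slc25a5. By chromosome, the 17 carriers on chromosome 11 included 2 higher and 10 lower, with a median log2 fold change of −0.18, where all 975 tested genes of that chromosome had a median of −0.023. The 12 on chromosome 8 included 4 higher and 0 lower, with a median of 0.059, where all 619 tested genes of that chromosome had a median of −0.014. The share of carriers called was 70.6% on chromosome 11 and 33.3% on chromosome 8, against 50.1% of all genes tested. Over all genes tested, 26.7% were higher and 23.4% were lower. On chromosome 7, where all 878 tested genes had a median of 0.24, lay 3 carriers, Slc25a22, Slc5a2 and Slc22a18, and the calls of Slc5a2 and Slc22a18 were not kept in every setting. Other settings did not all keep the call of Slc22a18.

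Promoter letters of the carriers were set beside those of all tested genes. E4BP4 binds the D-box. RefSeq promoters (GRCm38.p6, 250 bases before to 50 after the start) that begin within 1000 bases of the listed transcript start were found for 124 of the 169 carriers and for 8636 of the 11257 genes tested. The D-box letters TTATGTAA or TTACGTAA, on either strand, occurred in 0 of the 124 windows and in 45 of the 8636 (0.521%). The cAMP response element TGACGTCA occurred in 3 carrier windows (2.42%) and in 3.54% of all, and the ATF4 element TGATGNAAT in 0 carrier windows and in 0.382% of all. Metal response core letters, TGCACNC or TGCGCNC, occurred in 35.5% of carrier windows and 36.9% of all. The E-box letters CACGTG, which read the same on both strands, occurred in 19 carrier windows (15.3%) and 10.7% of all, in 6 of 24 windows of carriers called higher, 6 of 38 called lower and 7 of 62 that did not pass. None of these motifs contains another. A match is a description of letters, and its absence says only that the letters are not in the window.

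The windows of 5 genes described above are shown up to the transcript start. The first 3 are those that hold CACGTG before the start among the 12 highest carriers (7 windows found), the next is the only such window among the 12 lowest (8 found), and the last belongs to Slc6a13 and holds none. Capitals mark CACGTG, and bases run 5′ to 3′ on the gene's strand.
Slc25a33, chr4:149774268-149774517 (minus strand): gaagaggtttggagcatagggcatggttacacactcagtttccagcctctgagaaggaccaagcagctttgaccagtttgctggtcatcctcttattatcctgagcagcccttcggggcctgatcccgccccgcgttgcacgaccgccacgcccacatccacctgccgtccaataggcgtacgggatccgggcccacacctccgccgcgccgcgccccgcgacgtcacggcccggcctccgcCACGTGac
Slc38a7, chr8:95853492-95853741 (minus strand): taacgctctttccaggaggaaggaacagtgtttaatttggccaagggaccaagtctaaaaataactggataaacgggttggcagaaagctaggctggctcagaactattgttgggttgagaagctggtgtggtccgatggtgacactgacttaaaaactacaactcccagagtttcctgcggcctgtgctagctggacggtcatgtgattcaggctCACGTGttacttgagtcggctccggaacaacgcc
Slc27a1, chr8:71570344-71570593 (plus strand): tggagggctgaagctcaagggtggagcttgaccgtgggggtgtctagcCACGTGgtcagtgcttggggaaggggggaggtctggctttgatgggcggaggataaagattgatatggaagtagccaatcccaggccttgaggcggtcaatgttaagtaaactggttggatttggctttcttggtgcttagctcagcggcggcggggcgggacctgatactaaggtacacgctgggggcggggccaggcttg
Slc12a9, chr5:137333583-137333832 (minus strand): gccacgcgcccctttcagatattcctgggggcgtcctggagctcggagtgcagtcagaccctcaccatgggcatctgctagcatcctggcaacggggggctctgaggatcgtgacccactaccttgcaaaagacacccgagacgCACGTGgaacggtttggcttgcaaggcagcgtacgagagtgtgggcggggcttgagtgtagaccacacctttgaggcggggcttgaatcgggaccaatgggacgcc
Slc6a13, chr6:121300038-121300287 (plus strand): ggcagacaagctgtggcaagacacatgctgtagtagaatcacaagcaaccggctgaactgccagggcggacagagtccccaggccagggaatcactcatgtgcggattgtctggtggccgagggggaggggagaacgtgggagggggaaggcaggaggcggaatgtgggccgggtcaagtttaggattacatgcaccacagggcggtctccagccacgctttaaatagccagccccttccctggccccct
The last capital lies 3 bases before the start base in Slc25a33, 29 in Slc38a7, 197 in Slc27a1 and 101 in Slc12a9.

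Transporters outside the Slc families are given beside 26.7% higher and 23.4% lower over all genes tested. Of 27 tested ABC transporters 3 were higher and 8 were lower, with a median log2 fold change of −0.050. Among the 8 was Abcd2, which reached 1 TPM only in the controls, so its difference is in part what admitted it to the test. Abcc3, which exports organic anion conjugates, had 20.7, 20.2 and 20.9 TPM in the knockout-labelled libraries, against 37.9, 41.6 and 39.02 TPM in the controls (log2 fold change −0.91, limma adjusted p = 4.99e-07). Abcb4, a phospholipid exporter, had 3.22, 2.92 and 3.02 TPM under the knockout label, against 6.05, 7.42 and 6.98 TPM in the controls (log2 fold change −0.94, limma adjusted p = 1.4e-05). Both were lower in all 3 knockout-labelled libraries than in any control. Of 15 tested Mfsd genes, which encode carriers of the major facilitator type, 1 was higher and 4 were lower, among them Mfsd10 (−0.18) and Mfsd8 (−0.29). Of 7 tested carriers known by older symbols 3 were higher (Flvcr1, the lysosomal lipid carrier Spns1 and Xpr1) and 1, the mitochondrial pyruvate carrier subunit Mpc2, was lower. Spns1 (log2 fold change 0.35) lies on chromosome 7, where all 878 tested genes had a median of 0.24. Bsg, the chaperone that brings monocarboxylate carriers to the cell surface, had 193, 195 and 192 TPM under the knockout label and 232, 219 and 235 TPM in the controls (log2 fold change −0.24, limma adjusted p = 0.000542). None of 15 Slco genes, which encode organic anion transporting polypeptides, reached the level for testing.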

How the data were processed

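RNA-seq of 6 RAW264.7 libraries was deposited as 2 tables. The authors deposited TPM values for 25124 symbols, with the mm10 position and length of 1 RefSeq transcript each. A second deposited table held log2 values per library and the authors' own log2 fold change, p-values and adjusted p-values; its comparison header reads WT vs. TG, and TG was read as the knockout label. Tools named in the submitters' processing notes, with no roles, are DESeq2, HOMER 4.11.1, STAR 2.7.5a and bcl2fastq, and the build is mm10. The treatment of reads shared by paralogs or overlapping genes is not stated.

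The planned count model needed raw counts, and the tables hold none, so limma 3.58.1 (R 4.3.3, mean-variance trend, two-sided, no covariates) was fitted to log2(TPM + 1) of the 11257 genes with at least 1 TPM in at least 3 libraries, with Benjamini-Hochberg adjustment over all of them. Such fold changes understate low genes; ratios called fold are of mean TPM. The procedure was checked on simulated data with 200 changed genes and independent noise. These data had 5639 called genes and chromosome shifts, and the check does not cover those conditions. TPM times length fell on whole multiples of 1 step per library (100% within 0.1 of a whole number), which gave 15615639 to 19867732 reads per library, used for the reads quoted and for limma-voom. Replicates differed beyond sampling noise (chi-square 1.78 to 5.73 per degree of freedom), and all were counted. Such differences can be technical, so they do not show that each was a culture of its own. The highest values, 5.73 and 4.19, were those of control replicate 1 against control replicates 2 and 3.

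The carriers, substrate groups and lists were chosen with earlier results of these data known. Named were Nfil3; the 12 highest and 12 lowest called carriers without overlap whose mean reached 5 TPM in either group; the most abundant and the smallest-p member of each substrate group; the threshold neighbours; and the 2 smallest-p genes per related list with Bsg, Mt1, Mt2, Tfrc and Fth1. Any other gene named was chosen after its values were seen. The values of 2 carriers are not reported here. Exon overlap came from GENCODE M21, which held 168 of the 169 symbols; 16 shared over 10% of exonic bases with another gene. Promoter sequences were RefSeq's. Alternatives were other scaling, pseudocounts and filters, removal of chromosome shifts, a replicate block, limma-voom, the deposited log2 values and each library left out.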

Additional observations from a re-analysis of the deposited data

How the results depend on the processing

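Lower calls outnumbered higher ones among the 169 carriers in every setting. Over all genes higher calls were the more numerous (3002 higher, 2637 lower), but not with upper-quartile scaling (2819 higher, 2929 lower), chromosome shifts removed (2592 and 2787) or limma-voom (3024 and 3145), where all genes had the same order as the carriers. Upper-quartile scaling gave 33 higher and 58 lower, a pseudocount of 0.1 gave 38 and 50, no filter gave 31 and 45, and a minimum of 5 TPM gave 36 and 42 of 139 carriers. Removing the median shift of each chromosome gave 35 and 49, limma-voom on recovered reads 40 and 63, and the deposited log2 values 42 and 62 of 168. Leaving out each library in turn gave 29 to 37 higher and 42 to 52 lower. The median log2 fold change lay between −0.030 and 0.0070 over these settings, within 0.0262, the SD of that median between libraries, of its value of −0.0089. With the replicate number as a block (replicate block), 34 were higher and 45 lower. The numbers did not pair the libraries: deviations of same-numbered libraries correlated at −0.0133, −0.0578 and 0.00302. Of 35 carriers named by rule, only Slc25a5 and Slc29a2 changed side of the threshold in a setting that fitted them. Slc25a5 did so with upper-quartile scaling and without knockout-labelled replicates 2 or 3 or control replicate 2. Slc29a2 did so without a filter, with chromosome shifts removed, and without knockout-labelled replicates 1 or 2 or control replicates 2 or 3. Of the 35, 3 that did not pass changed sign without passing. Slc35c2 (0.017) gave −0.0037 with upper-quartile scaling, −0.0038 with limma-voom and −0.0126 to 0.0575 with 1 library left out, below 0 without knockout-labelled replicate 3 or control replicate 2. With 1 library left out Slc29a1 (−0.0078) gave −0.0538 to 0.0318, above 0 without knockout-labelled replicate 2 or control replicate 2. Slc52a3 (0.067) gave −0.0089 to 0.123, below 0 without control replicate 1. The cause was not tested. At a mean of at least 5 TPM, where more reads stand behind each value, 33 of 138 carriers were higher and 41 lower. The share called was 53.6% of these carriers and 53.3% of all 8957 tested genes at that level. Of the carriers 23.9% were higher, against 28.96% of those genes, and 29.7% were lower, against 24.4%.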

Other observations

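Carrier genes below the level for testing gave values that enter no test. None of the 181 reached 1 TPM in any library, and 150 were above 0 in at least 1. Slc16a14, an orphan of the monocarboxylate carrier family, had 0.858, 0.711 and 0.446 TPM in the knockout-labelled libraries, against 0.081, 0.113 and 0.0970 TPM in control libraries (76 reads in all under the knockout label and 10 in the controls). Slc17a7, a vesicular glutamate carrier, had 0.266, 0.345 and 0.441 TPM under the knockout label, against 0, 0.0230 and 0.0260 TPM in control libraries (50 reads in all under the knockout label and 2 in the controls). Slc18a1, a vesicular monoamine carrier, had 0.251, 0.326 and 0.357 TPM under the knockout label and 0.861, 0.809 and 0.877 TPM in control libraries (47 reads in all under the knockout label and 116 in the controls). Slc22a15, an organic cation carrier, had 0.431, 0.449 and 0.482 TPM under the knockout label, against 0.882, 0.837 and 0.820 TPM in control libraries (146 reads in all under the knockout label and 248 in the controls). These 4 were chosen after their values were seen.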
